A study of Mus musculus with 8 samples.

Results

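The plasma membrane and lysosomal carriers of amino acids were taken as the genes of the families Slc1, Slc3, Slc6, Slc7, Slc36, Slc38 and Slc43, by gene symbol. The symbols matched 64 of the 26642 rows of the count table. Of these, 63 are carriers or their partner chains. The last is Slc7a6os, a separate gene beside Slc7a6 on the opposite strand of chromosome 8, which is not a carrier. The Slc6 family also holds carriers of neurotransmitters, taurine, betaine and creatine, and these were kept. The messenger RNA came from CT26, a mouse colon carcinoma cell line cultured in RPMI medium with serum. The groups were 4 unedited libraries (WT) and 4 libraries with a knockout of Tead1 and Tead4, whose products bind DNA and carry the co-activators YAP and TAZ of the Hippo pathway. No treatment or time course is given. The labels also do not give the edited exon, whether the knockout cells are a single clone, or whether each replicate was grown apart. The p-values therefore rest on library-to-library spread that may be purely technical. In bulk RNA, fewer cells of a type and less RNA per cell cannot be told apart.

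Amino acids cross membranes on carriers. Many of these are exchangers, which swap an amino acid inside for another outside, or symporters, which use a sodium or proton gradient. Several Slc7 proteins are light chains that reach the cell surface only when linked to a heavy chain from the Slc3 family. When amino acids run short or the endoplasmic reticulum is stressed, kinases that phosphorylate eIF2α raise translation of the transcription factor ATF4, and ATF4 in turn activates genes for carriers, amino acid synthesis and tRNA charging. Tumour cells often carry high levels of the leucine exchanger LAT1, the glutamine exchanger ASCT2 and the cystine exchanger xCT.

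Total counts per library lay between 29679405 and 32774905, at which 3 counts are 0.0915 to 0.101 CPM (library-scaled counts, the unit used throughout). Tead1 was 3.05-fold lower (edgeR adjusted p = 0.00217) and Tead4 1.63-fold lower (adjusted p = 0.0261) in the knockout libraries, counted over the whole gene. The Tead4 call was lost without WT replicate 1 or 4 or knockout replicate 2 or 3 (adjusted p = 0.0601 to 0.0800). Knockout replicate 1 had a count above 0 in 14345 rows, against 17759 to 17948 in the other knockout libraries and 14566 to 15430 in WT. WT replicates 1 and 4 resembled each other, as did 2 and 3 (chi-square per degree of freedom 34.7 and 35.0, against 201 to 242 for the other WT pairs). Of the epithelial markers, Epcam was at 0 in every library and Cdh1 at no more than 0.153 CPM, whereas Krt20 was at 20.4 to 62.9 CPM and Krt18 rose from 38.5 ± 2.93 to 76.3 ± 8.65 CPM (adjusted p = 0.00107). Of 6 fibroblast markers, 4 were tested and 2 rose, Dcn from 0.0355 to 7.83 CPM (adjusted p = 0.000803) and Pdgfra from 8.01 to 35.9 CPM (adjusted p = 0.000837). The more abundant Col1a2 (1418 and 1519 CPM, adjusted p = 0.716) and Col1a1 (196 and 213 CPM, adjusted p = 0.750) did not pass. The summed level of the 6 overlapped, at 1364 to 2023 CPM in WT and 1565 to 2072 CPM in the knockout. The part of these epithelial and fibroblast markers in the results on carriers was not tested.

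Of the 63 carriers, 25 had enough counts to be tested (filterByExpr in edgeR), as had Slc7a6os. Among the 25, 5 rose and 1 fell in the knockout libraries at an adjusted p under 0.05, which is 24.0%. Over all 13265 rows tested the share was 41.6%, with 20.9% higher and 20.6% lower. The carriers that rose were Slc1a2, Slc7a7, Slc36a4, Slc7a3 and Slc38a6, and the carrier that fell was Slc7a5. The median log2 fold change of the 25 carriers, knockout minus WT, was -0.10, against 0.02 for all rows tested. Which median was higher depended on the setting. Upper-quartile factors gave 0.08 for the carriers and 0.20 for all rows. But leaving out WT replicate 2 gave 0.16 and 0.07, and leaving out knockout replicate 2 gave 0.13 and 0.03. No filter gave 0.59 and 0.32, over a larger set that adds the 20 carriers with too few counts for the main test. Upper-quartile scaling also split the calls into 3580 higher and 1962 lower, where TMM gave 2779 and 2734. The 4 values of each genotype did not overlap for 9 of the 25 carriers, against 40.7% of all rows tested. The share of carriers that changed was therefore not above the background of this comparison.

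**Figure D1:**
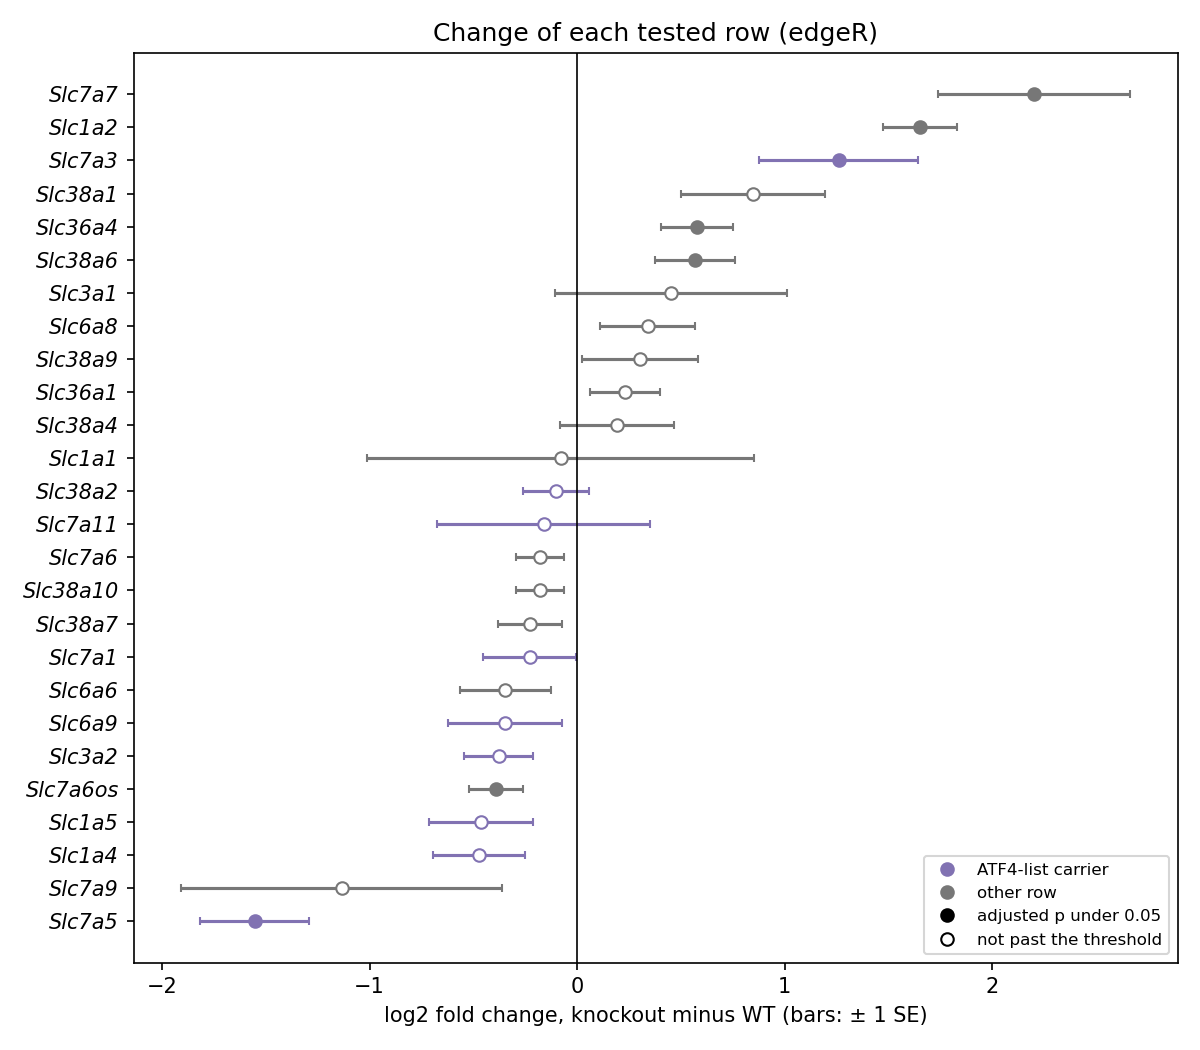
Log2 fold change (knockout minus WT, horizontal axis) of each of the 26 rows tested, with bars of 1 standard error (SE) on each side. Filled points passed an adjusted p of 0.05, and purple points are carriers on the ATF4 list. Slc7a5 is at -1.55 at the bottom, and Slc7a7 and Slc1a2 are at 2.20 and 1.65 at the top.

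Most of the carriers that textbook knowledge ties to ATF4 did not pass the test on their own. The list held 9, all of them tested: Slc7a5, Slc3a2, Slc7a11, Slc7a1, Slc7a3, Slc1a4, Slc1a5, Slc6a9 and Slc38a2. Of these 1 fell (Slc7a5), 1 rose (Slc7a3) and 7 did not pass the test, where 41.6% of all rows tested were called. The log2 fold change was negative for 8 of the 9, against 48.9% of all rows. Their median was -0.35, against 0.27 for the other 16 carriers tested, of which 4 rose and 12 did not pass in edgeR. The 5 with an unadjusted p under 0.05 were all higher in the knockout (the 4 and Slc38a1), and DESeq2 called these 5. The median of the ATF4 list lay between -0.44 and -0.16 over the alternative settings and left-out libraries. These medians describe the lists and carry no test of the difference between them.

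Slc7a5 encodes LAT1, the light chain that imports leucine and other large neutral amino acids. It lies on chromosome 8 (121881150 to 121907694, minus strand, GRCm38, GENCODE M21; ENSMUSG00000040010). WT replicates 1 to 4 stood at 643, 613, 539.8 and 754 CPM, and knockout replicates 1 to 4 at 309, 121, 205 and 233 CPM. All 4 knockout values lay below all 4 WT values, with knockout replicate 2 lowest. The mean went from 638 ± 88.8 CPM (SD, n = 4) to 217 ± 77.8 CPM, 2.94-fold lower. On the log2 scale the difference was -1.55 (SE 0.26, adjusted p = 0.0024 in edgeR; exact two-sided permutation p = 0.0286, the smallest that 70 assignments allow). With any 1 library left out it lay between -1.79 and -1.35, and the adjusted p stayed at 0.00952 or less.

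Slc3a2 encodes CD98hc, the heavy chain that LAT1 and xCT share. Its values were 279, 343, 293 and 311 CPM in WT and 305, 196, 217 and 224 CPM in the knockout. Knockout replicate 1 stood within the WT range and the other knockout libraries below it. The log2 fold change was -0.38 (SE 0.17, adjusted p = 0.0930), so the gene did not pass the test. Without knockout replicate 1 it did (-0.54, adjusted p = 0.00854).

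Scaled to the length of all annotated exons, the level of Slc7a5 was above that of Slc3a2 in WT and below it in the knockout. Which message is more abundant depends on the transcripts used, which the counts do not give. The lengths are fixed for each gene, so the change of a ratio between genotypes does not depend on them. The ratio of Slc7a5 to Slc3a2 was 2.20, 1.70, 1.75 and 2.31 in WT replicates 1 to 4. It was 0.966, 0.586, 0.896 and 0.991 in the knockout libraries, all below the lowest WT library. The means were 1.99 ± 0.307 and 0.860 ± 0.187 (SD, n = 4; exact two-sided permutation p = 0.0286, Benjamini-Hochberg p = 0.0476 over the 5 ratios computed). Slc7a6 encodes y+LAT2, another light chain of the same heavy chain, and stood at 67.3 ± 3.18 CPM in WT and 59.4 ± 2.29 CPM in the knockout (adjusted p = 0.238). Its knockout values, 57.3 to 62.1 CPM, lay just below those of WT, 62.6 to 69.7 CPM (exact permutation p = 0.0286). Its ratio to Slc3a2 was 0.171 ± 0.0180 in WT and 0.201 ± 0.0395 in the knockout (exact permutation p = 0.229, Benjamini-Hochberg p = 0.286). The ratio of Slc7a5 to Slc7a6 went from 11.8 ± 2.23 to 4.53 ± 1.72 (exact permutation p = 0.0286, Benjamini-Hochberg p = 0.0476). In these libraries LAT1 message was thus lower relative to both its heavy chain and this second light chain. The ratios were chosen after the values were seen. Their p-values therefore describe the separation and add no support beyond that of Slc7a5 itself.

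Slc7a11 encodes xCT, which brings in cystine in exchange for glutamate and feeds glutathione synthesis. It lies on chromosome 3 (49892526 to 50443614, minus strand). The bases before the start of 5 genes are shown to compare the letters to which ATF4 and C/EBP factors bind as a pair, TGATGNAA on either strand. Matches are in capitals, read 5′ to 3′ on the gene's strand, from RefSeq on GRCm38.p6. Each stretch ends at the last of the 250 bases before the listed start, except that of Slc1a4, which runs on to the end of its match.
Slc7a11 (chr3:50443614-50443713, minus): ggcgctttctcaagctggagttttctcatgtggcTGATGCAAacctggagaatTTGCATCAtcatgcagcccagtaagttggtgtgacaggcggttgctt
Slc1a4 (chr11:20332710-20332813, minus): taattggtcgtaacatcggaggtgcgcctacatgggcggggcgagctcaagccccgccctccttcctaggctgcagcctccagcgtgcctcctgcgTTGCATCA
Slc3a2 (chr19:8713898-8713997, minus): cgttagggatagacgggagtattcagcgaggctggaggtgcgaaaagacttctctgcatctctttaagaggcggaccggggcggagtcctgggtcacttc
Slc38a2 (chr15:96699729-96699828, minus): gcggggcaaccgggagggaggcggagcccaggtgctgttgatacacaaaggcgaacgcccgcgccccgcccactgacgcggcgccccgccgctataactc
Slc1a2 (chr2:102706338-102706437, plus): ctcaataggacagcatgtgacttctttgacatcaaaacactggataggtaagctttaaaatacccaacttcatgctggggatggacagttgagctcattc

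The Slc7a11 stretch holds a match on each strand and Slc1a4 a match across its start. No match stands in the 300-base windows (250 before and 50 after the start) of Slc3a2, Slc38a2 or Slc1a2, which says only that these letters are not in these windows. The listed starts of Slc3a2 and Slc1a2 lie inside the extents that GENCODE gives these genes, so the bases before their outermost starts were not searched. Of the 6 ATF4-list carriers with a window, 2 held a match, as did 1 of the 13 other tested carriers with one (Slc7a7). Of all 27025 genes with windows, 4.51% did. GGAATG, the letters TEAD factors prefer, stood on either strand in a window of 4 of these 19 tested carriers (Slc1a2, Slc36a1, Slc6a9 and Slc7a7) and in 16.6% of all these genes. The antioxidant letters TGACNNNGC, to which NRF2 binds, stood in a window of 5 of the 19 (Slc36a1, Slc38a2, Slc6a9, Slc7a1 and Slc7a6) and in 14.0% of all these genes. The motifs were searched separately, without regard to overlap. Among the genes with a match, Slc6a9, Slc7a1, Slc7a6 and Slc7a7 have several listed starts and so had more windows to match in. Slc7a5, Slc1a5 and Slc7a3 have no window here.

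The Slc7a11 values of the genotypes overlapped. They were 44.9, 65.1, 42.7 and 48.1 CPM in WT and 27.9, 9.23, 66.6 and 75.8 CPM in the knockout. Knockout replicates 1 and 2 lay below all WT libraries and replicates 3 and 4 above them. The log2 fold change was -0.16 (SE 0.51, adjusted p = 0.819), with the sign turned by leaving out knockout replicate 2 (0.19), by upper-quartile factors (0.02) and by library size only (0.04). A change in either direction was not detectable against this spread. The ratio of Slc7a11 to Slc3a2 per exon length was 0.0413 ± 0.00484 in WT and 0.0496 ± 0.0375 in the knockout (exact permutation p = 0.943, Benjamini-Hochberg p = 0.943).

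**Figure D2:**
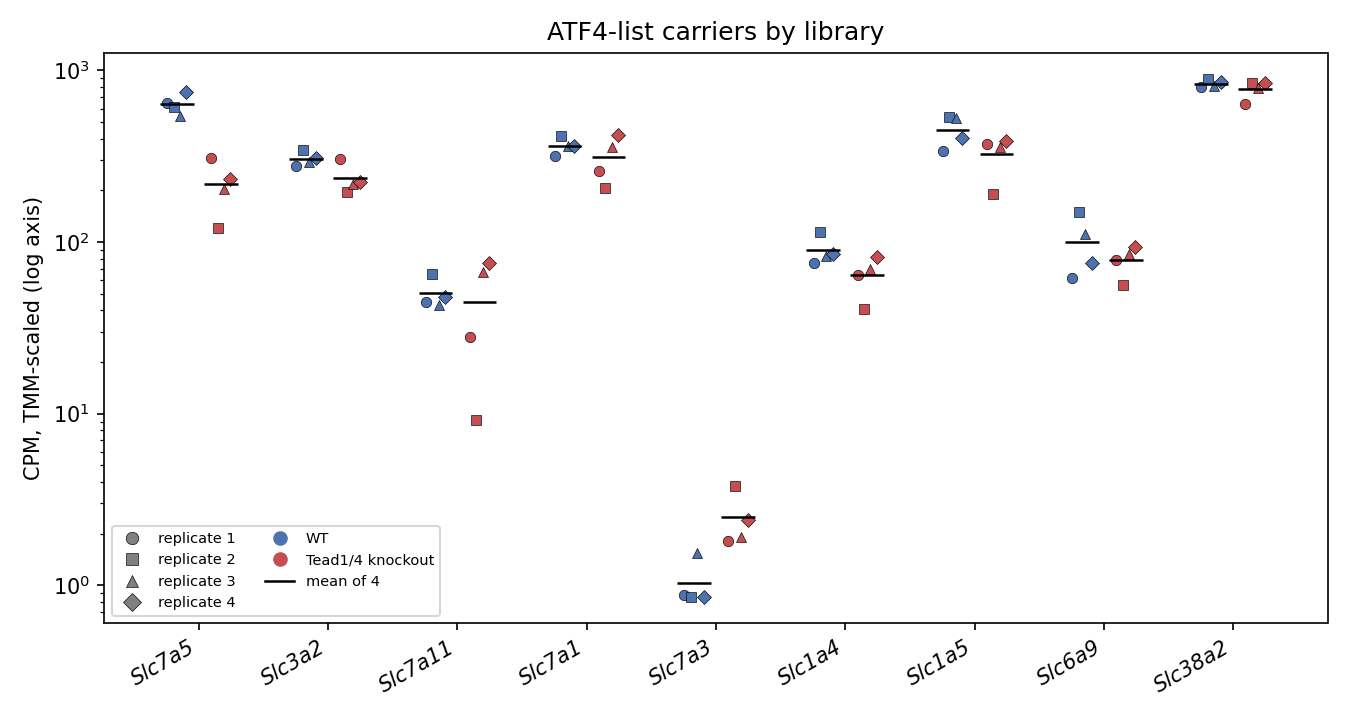
CPM (log axis) of the 9 ATF4-list carriers in each library, WT in blue and knockout in red, with 1 marker shape per replicate number and a line at the mean of 4. Only Slc7a5 and Slc7a3 have genotypes that do not overlap, and the knockout values of Slc7a11 run from 9.23 to 75.8 CPM.

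The sodium-linked exchangers of small neutral amino acids, Slc1a4 (ASCT1) and Slc1a5 (ASCT2), did not pass the test. Slc1a5, the main glutamine exchanger of many tumour lines, stood at 339, 536, 527 and 405 CPM in WT and 374, 189, 357 and 388 CPM in the knockout. Knockout replicate 2 was far below the other knockout libraries, and WT replicates 2 and 3 were above 1 and 4. The log2 fold change was -0.46 (SE 0.25, adjusted p = 0.158). Slc1a4 was at 75.6, 114, 82.8 and 84.9 CPM in WT and 64.6, 40.8, 69.9 and 82.0 CPM in the knockout (-0.47, SE 0.22, adjusted p = 0.109). Here too the genotypes overlapped and knockout replicate 2 was lowest.

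The carriers of cationic amino acids, which bring in arginine and lysine, were unequal in level. Slc7a1 (CAT1) was at 318, 416, 364 and 361 CPM in WT and 260.0, 206, 357 and 421 CPM in the knockout, a range that enclosed WT (log2 fold change -0.23, SE 0.22, adjusted p = 0.428). Slc7a3 (CAT3) was far lower, at 0.883, 0.853, 1.55 and 0.852 CPM in WT and 1.80, 3.81, 1.92 and 2.41 CPM in the knockout. All its knockout values lay above the WT values. It rose by 1.26 on the log2 scale (SE 0.38, adjusted p = 0.0254). This rests on 24 to 46 counts per WT library, and the call was lost without WT replicate 1, 2 or 4 or knockout replicate 2 or 4 (adjusted p = 0.0568 to 0.0899).

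Slc38a2 (SNAT2), the sodium-coupled importer of alanine and glutamine that cells raise on amino acid shortage, had the highest mean CPM of the carriers in both genotypes. It stood at 800.4, 893, 807 and 853 CPM in WT and 642, 849, 789 and 848 CPM in the knockout. The log2 fold change was -0.10 (SE 0.16, adjusted p = 0.633; 0.08 and 0.09 with upper-quartile factors and library size only). Slc6a9 (GLYT1), a glycine importer, was at 62.2, 150, 111 and 75.4 CPM in WT and 78.6, 56.1, 85.0 and 93.7 CPM in the knockout (-0.35, SE 0.28, adjusted p = 0.329). The WT libraries alone spanned more than the knockout libraries, with replicates 2 and 3 highest. Its exons share 1429 bases with Ccdc24 on the opposite strand, which was at 0.887 to 7.01 CPM.

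Knockout replicate 2 was the lowest of all 8 libraries for 7 of the 9 ATF4-list carriers, all but Slc7a3 and Slc38a2, and for 1 of the 16 other carriers tested. Genes of the ATF4 pathway that are not carriers showed the same library at the bottom. Centred on all 8 libraries, their mean log2 level was -0.63 in knockout replicate 2, -0.11 to 0.04 in the other knockout libraries and -0.10, 0.49, 0.15 and 0.21 in WT replicates 1 to 4. For the 9 carriers the same measure was -0.66 in knockout replicate 2, -0.15 to 0.15 in the other knockout libraries and -0.04, 0.38, 0.22 and 0.12 in WT. Both lists were thus highest in WT replicate 2 and lowest in knockout replicate 2, and for both the genotypes overlapped. What sets knockout replicate 2 apart was not tested.

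**Figure D3:**
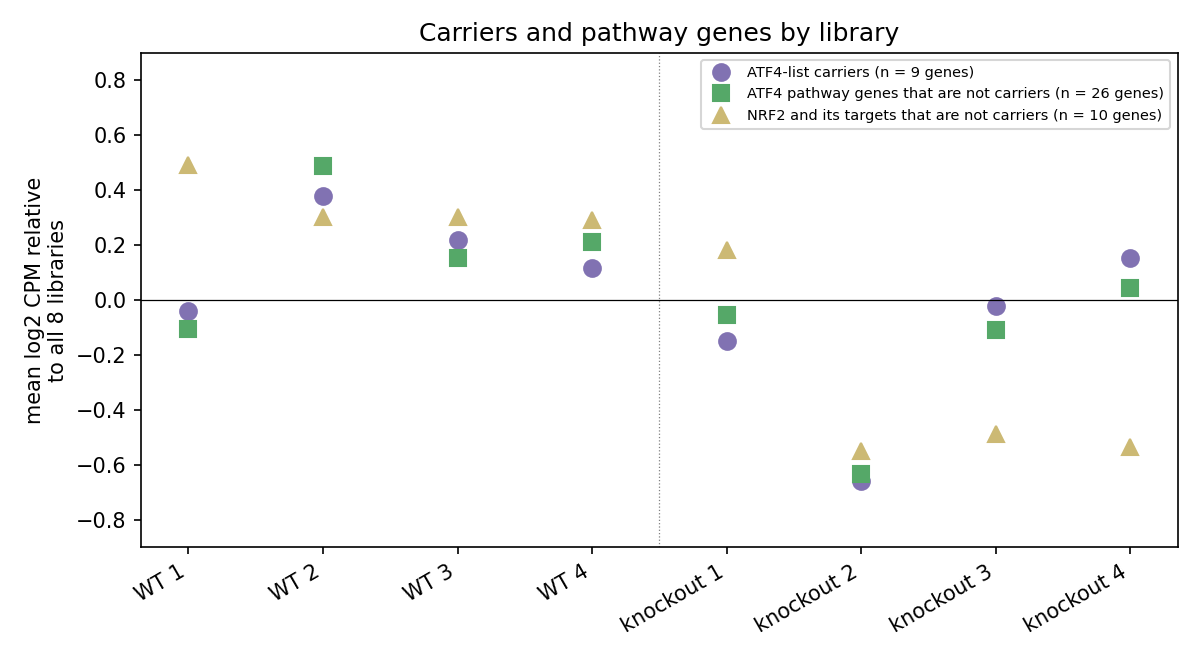
Mean log2 CPM of 3 gene lists in each library, relative to the mean of all 8 libraries: 9 ATF4-list carriers (circles), 26 ATF4 pathway genes that are not carriers (squares) and 10 genes of NRF2 and its targets (triangles). Circles and squares are lowest in knockout replicate 2 (-0.66 and -0.63), and triangles are lower in every knockout library than in every WT library.

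Of the 27 ATF4 pathway genes that are not carriers, 26 were tested, and 10 fell, 3 rose and 13 did not pass, against a background of 20.6% lower and 20.9% higher over all rows tested. The calls of 5 of these 13 changed genes were lost when some library was left out (Eif2ak4, Psph, Mthfd2, Ppp1r15a and Ddit3). Atf4 itself stood at 770 ± 189 CPM in WT and 542 ± 112 CPM in the knockout (log2 fold change -0.51, adjusted p = 0.104). Genes that fell included Psat1, an enzyme of serine synthesis (869 ± 43.6 to 362 ± 156 CPM, adjusted p = 0.00537), Gpt2, a mitochondrial alanine aminotransferase (156 ± 39.1 to 60.8 ± 20.9 CPM, adjusted p = 0.00557), and Shmt2, which takes serine into one-carbon metabolism (693 ± 77.6 to 241 ± 136 CPM, adjusted p = 0.00598). Stc2, a secreted glycoprotein, fell from 2.77 ± 0.319 to 0.799 ± 0.260 CPM (adjusted p = 0.00380). The 3 that rose, named after their values were seen, were Eif2ak3, which encodes the eIF2α kinase PERK (0.77, adjusted p = 0.00878), Ppp1r15a (1.01, adjusted p = 0.0333) and Ddit3 (1.001, adjusted p = 0.0439). The genotypes overlapped for Ppp1r15a and Ddit3, and both calls were lost without WT replicate 1, 3 or 4 or knockout replicate 3 or 4 (adjusted p = 0.0548 to 0.0863 for Ppp1r15a, and 0.0615 to 0.110 for Ddit3). Ppp1r15a encodes a phosphatase subunit that reverses eIF2α phosphorylation and Ddit3 the stress factor CHOP. Trib3 and Chac1, read as targets of ATF4 in many cells, were at adjusted p = 0.977 and 0.719, and were also named after their values were seen.

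Slc7a11 is a target of NRF2 as well, the factor of the oxidative stress response. Among 10 genes of NRF2 and its other targets, 5 fell and 5 did not pass, where 20.6% of all rows tested fell. Gclm and Gclc encode the subunits of the enzyme that uses imported cystine, as cysteine, to start glutathione synthesis. Gclm fell from 343 ± 81.9 to 94.97 ± 34.8 CPM (adjusted p = 0.00124) and Gclc from 178 ± 38.2 to 104 ± 11.2 CPM (adjusted p = 0.00707). Gsr, glutathione reductase, fell by 0.60 (adjusted p = 0.0173) and Me1, malic enzyme, by 0.71 (adjusted p = 0.0206), both as log2 fold changes. The genotypes overlapped for Me1 and Txnrd1. Both calls were lost without knockout replicate 2, 3 or 4 (adjusted p = 0.0555 to 0.0586 for Gsr, and 0.0587 to 0.0640 for Me1), as was that of Txnrd1, also without WT replicate 1 (adjusted p = 0.0853 to 0.0928). Nfe2l2, which encodes NRF2, was at 275 ± 79.3 and 274 ± 29.96 CPM (adjusted p = 0.992). Gclm was at 147, 80.2, 74.6 and 78.0 CPM in knockout replicates 1 to 4. Slc7a11 was lowest in replicate 2 and highest in replicates 3 and 4.

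Of the glutamate and aspartate carriers, Slc1a2 rose. It encodes GLT1, which clears glutamate at synapses and is best known from astrocytes, and lies on chromosome 2 (102658659 to 102790784, plus strand, GRCm38; ENSMUSG00000005089). WT replicates 1 to 4 were at 265, 214, 209 and 249.7 CPM, and knockout replicates 1 to 4 at 552, 767, 802 and 825 CPM. Even the lowest knockout library, replicate 1, was above 2 times the highest WT library. The mean went from 234 ± 27.1 to 736 ± 125 CPM, 3.14-fold higher (log2 fold change 1.65, SE 0.18, edgeR adjusted p = 0.000437; exact permutation p = 0.0286). With any 1 library left out the log2 fold change lay between 1.58 and 1.75, and the call held in each of the 17 alternatives run. Of 5 neural markers, Aqp4 was at 0 and Gfap at no more than 0.244 CPM, and Syt1, the only one tested, rose from 10.7 ± 1.76 to 29.0 ± 2.49 CPM (adjusted p = 0.000568). Nearly all of the summed level of the 5 was Syt1 (8.79 to 12.9 CPM in WT and 25.4 to 31.0 CPM in the knockout), and their part in the Slc1a2 result was not tested. The exons of Slc1a2 share 189 bases with an antisense gene, and if the counting did not use strand these reads cannot be told apart. The RefSeq start whose bases are printed with those of Slc7a11 lies inside the extent that GENCODE gives to Slc1a2, so the gene has more than 1 annotated start, and the counts do not say which was used.

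The neuronal and epithelial glutamate carrier Slc1a1 was low and did not separate the genotypes (0.957, 1.95, 0.168 and 1.03 CPM in WT, 0.126, 0.122, 1.45 and 2.17 CPM in the knockout, adjusted p = 0.953). Its exons overlap 4430402I18Rik on the opposite strand by 2631 bases, and that gene rose (adjusted p = 0.00361). Slc1a7, a retinal glutamate carrier, had no counts in WT and 0, 2, 23 and 18 counts in knockout replicates 1 to 4, at least 3.04-fold higher against a floor of 3 counts per library. It was too low for the main test.

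**Figure D4:**
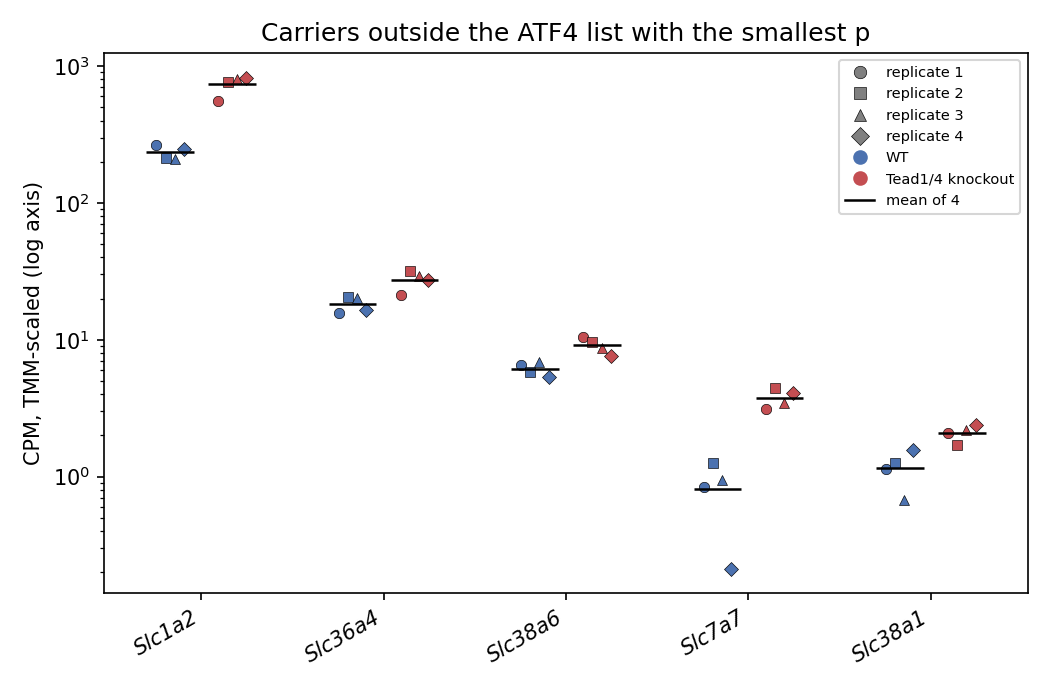
CPM (log axis) in each library of the 5 carriers outside the ATF4 list with the smallest p, WT in blue and knockout in red, with a line at the mean of 4. The genotypes do not overlap for any of these 5, which were picked for small p, nor for 40.7% of all rows tested. Slc1a2 stands near the level of the major carriers, and Slc7a7 and Slc38a1 are under 5 CPM in every library.

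Among the remaining light chains, Slc7a7 had the largest fold. It encodes y+LAT1, an exchanger of cationic for neutral amino acids that is known from intestine, kidney and macrophages, and it lies on chromosome 14 (54369442 to 54417780, minus strand). It was at 0.846, 1.26, 0.943 and 0.213 CPM in WT and 3.13, 4.45, 3.43 and 4.10 CPM in the knockout. Each knockout library was above each WT library, at 6 to 37 counts per WT library and 99 to 146 per knockout library. It rose by 2.20 on the log2 scale (SE 0.46, adjusted p = 0.00563), with a range of 1.86 to 2.49 when 1 library was left out. Its exons share 232 bases with Oxa1l on the opposite strand, which fell (86.4 ± 16.2 to 58.8 ± 11.7 CPM, adjusted p = 0.0384). The Oxa1l call was lost without WT replicate 1, 2 or 4 or knockout replicate 2, 3 or 4 (adjusted p = 0.0563 to 0.106), and the part of shared reads in the Slc7a7 counts was not tested. Of 8 leukocyte markers, Adgre1 and Cd3e were at 0 and Ptprc at no more than 0.101 CPM, while Cd68 and Lyz2, the only ones tested, rose. The summed level of the 8, most of it Cd68, was 1.55 to 3.83 CPM in WT and 9.96 to 16.4 CPM in the knockout, and their part in the Slc7a7 result was not tested. Slc7a9, the light chain of cystine uptake in kidney, stayed at 0.478 CPM or less (adjusted p = 0.259). Its heavy chain Slc3a1 was also low, at 0.850 ± 0.566 CPM in WT and 1.16 ± 0.482 CPM in the knockout (adjusted p = 0.537). Slc3a1 shares 601 exon bases with Prepl on the opposite strand, which was at 43.2 ± 3.77 and 39.8 ± 3.70 CPM.

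Of the proton-coupled and lysosomal carriers, 1 passed the test. Slc36a4 (PAT4), which transports proline and tryptophan, was at 15.8, 20.7, 20.3 and 16.6 CPM in WT and 21.2, 31.9, 29.1 and 27.1 CPM in the knockout. The lowest knockout library, replicate 1, was just above the highest WT library. It rose by 0.58 on the log2 scale (SE 0.17, adjusted p = 0.0246), and the call was lost without WT replicate 1 or 4 or knockout replicate 2, 3 or 4 (adjusted p = 0.0536 to 0.0748). Slc36a1 (PAT1), which exports small amino acids from lysosomes, was at 24.7 ± 2.88 and 28.9 ± 5.29 CPM (adjusted p = 0.294). Slc38a9, the lysosomal arginine sensor of mTORC1, was at 6.53 ± 1.53 and 8.05 ± 2.40 CPM (adjusted p = 0.406), with 131 counts in the lowest library. Slc38a7, a lysosomal exporter of glutamine and asparagine, was at 32.8 ± 4.59 and 28.0 ± 3.54 CPM (adjusted p = 0.263).

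In the rest of the Slc38 family, Slc38a6 was at 6.55, 5.84, 6.87 and 5.32 CPM in WT and 10.5, 9.65, 8.73 and 7.61 CPM in the knockout. The genotypes did not overlap. It rose by 0.57 on the log2 scale (SE 0.19, adjusted p = 0.0381). This call was lost without WT replicate 1, 2 or 4 or knockout replicate 1, 2 or 3 (adjusted p = 0.0625 to 0.0945). Slc38a1 (SNAT1), a glutamine importer, was at 1.14, 1.26, 0.674 and 1.56 CPM in WT and 2.09, 1.71, 2.18 and 2.38 CPM in the knockout. It did not overlap either but missed the threshold (0.85, SE 0.35, adjusted p = 0.0726), which it passed with DESeq2 (adjusted p = 0.0365). Slc38a4 (SNAT4) and Slc38a10 did not pass (adjusted p = 0.594 and 0.235), although the 4 knockout values of Slc38a10, 95.9 to 104 CPM, lay just below those of WT, 106 to 120.4 CPM.

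In the Slc6 family the osmolyte and creatine carriers were abundant, and neither passed. Slc6a6 (TAUT), which imports taurine, was at 469, 325, 365 and 393 CPM in WT and 289.6, 439.7, 246 and 246 CPM in the knockout. Knockout replicate 2 stood apart upward here, within the WT range, and without it the gene passed (log2 fold change -0.56, adjusted p = 0.0450) where the full comparison did not (-0.35, SE 0.22, adjusted p = 0.223). Slc6a8, the creatine importer, was at 121, 113, 94.9 and 124 CPM in WT and 184, 185, 104 and 99.9 CPM in the knockout. Knockout replicates 1 and 2 were above WT and replicates 3 and 4 within it (0.34, SE 0.23, adjusted p = 0.257). Slc7a6os, which is no carrier, passed with a log2 fold change of -0.39 (adjusted p = 0.0344). Its level was 45.6, 40.04, 37.7 and 42.5 CPM in WT and 33.0, 28.0, 32.1 and 33.3 CPM in the knockout, without overlap. This is a call that 12 of 17 alternatives did not keep.

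The other 38 rows had too few counts for the main test. A count of 0 in all 8 libraries was found for 18 of them: Slc1a3, Slc1a6, Slc6a2, Slc6a3, Slc6a7, Slc6a11, Slc6a15, Slc6a18, Slc6a21, Slc7a2, Slc7a4, Slc7a10, Slc7a12, Slc7a13, Slc36a2, Slc36a3, Slc38a5 and Slc38a11. The other 20 had at most 47 counts in any library, and 18 of them had more counts in the knockout libraries than in WT, the exceptions being Slc6a4 and Slc43a1. The same share over all untested rows was not computed. Over the whole table, knockout replicates 2 to 4 had counts in 17759 to 17948 rows, against 14566 to 15430 in WT. The 18 are therefore not read as a result about carriers. In knockout replicate 1, 19 of the 20 were at 0, all but Slc7a14. Slc7a14, a lysosomal protein of retina and neurons, had no counts in WT and 2, 15, 36 and 37 in the knockout libraries, at least 6.42-fold higher. Slc6a12, the betaine carrier, had 47 of its 54 knockout counts in replicate 2 and none in WT (at least 3.90-fold higher). Slc43a2 (LAT4), an exporter of branched-chain amino acids, had 2 counts in WT and 0, 12, 44 and 13 in the knockout libraries. Scaled to depth this ratio was 29.97, and its 95% Clopper-Pearson interval ran from 7.99 to 252. That interval takes the counts as independent and is too narrow if both mates of a read pair were counted, and 44 of the 69 knockout counts lay in replicate 3. Slc43a2 also shares exon bases with a non-coding gene or gene model on the opposite strand, as do Slc6a6, Slc38a9 and Slc38a10. Slc43a1 (LAT3) had 3 to 10 counts per WT library and 0, 0, 2 and 2 in the knockout. Intervals and floors cover counting error only, and the main fit did not test levels this low. With no filter on low counts, Slc7a14, Slc43a2, Slc1a7 and Slc6a12 passed (edgeR adjusted p = 0.00518 to 0.0351), and no others of the 20 did.

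Per exon length, 4 carriers made up most of the carrier message in WT: Slc7a5 with 25.3% ± 3.36, Slc1a5 with 15.9% ± 3.10, Slc38a2 with 13.9% ± 0.113 and Slc3a2 with 12.7% ± 0.487 of the summed level of the 63 (SD, n = 4). In the knockout Slc38a2 came first with 16.8% ± 2.94, then Slc1a5 with 14.6% ± 3.37, Slc3a2 with 12.6% ± 2.02, Slc7a5 with 10.9% ± 3.35 and Slc1a2 with 10.7% ± 2.11. Slc1a2 moved from the 10th place, at 2.63% ± 0.388, to the 5th. In the knockout each of these 5 lay within the larger SD of its neighbour in the order. In WT Slc1a5 and Slc38a2 did so too, and Slc7a5 stood above Slc1a5 by more than their SDs together. All of these shares and places depend on the exon length taken for each gene, and the shares also on the summed level. The share of Slc38a2 was higher in the knockout although its mean CPM was not (838 in WT and 782 in the knockout). Slc7a11, the cystine exchanger, held 0.528% ± 0.0810 in WT and 0.594% ± 0.408 in the knockout, with mean levels of 50.2 and 44.9 CPM. The summed per-length level of the 63 carriers was 643, 723, 658 and 697 RPKM (CPM per kilobase of exon) in WT and 555, 474, 527 and 563 in the knockout. Here every knockout library was below every WT library, but not with library size only (WT from 581 to 714, knockout from 508 to 609) nor for the carriers other than Slc7a5 (WT from 469 to 557, knockout from 441 to 499.9). The ratio of Slc1a2 to Slc1a5 was 0.174 ± 0.0592 in WT and 0.786 ± 0.350 in the knockout (exact permutation p = 0.0286, Benjamini-Hochberg p = 0.0476). This ratio too was chosen after the values were seen, so its p-value adds no support beyond that of Slc1a2 itself.

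**Figure D5:**
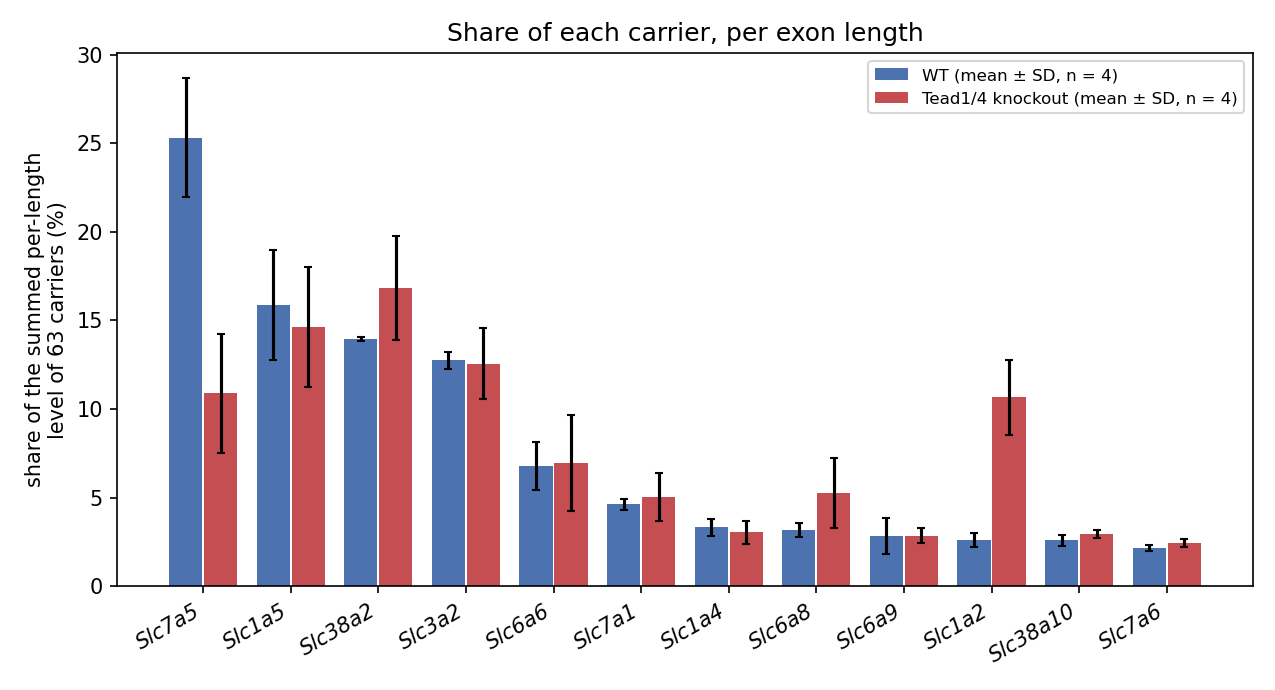
Share of each carrier in the summed level of the 63 carriers, per exon length (percent), for the 12 highest in WT, with bars at the mean of 4 libraries and SD as error bars. Slc7a5 is highest in WT (25.3%) and at 10.9% in the knockout, and Slc1a2 is at 2.63% in WT and 10.7% in the knockout.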

How the data were processed

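Messenger RNA of 8 libraries, 4 WT and 4 Tead1/4 knockout by title, was sequenced after TRIzol extraction and a Yeasen mRNA library kit, per the labels. HISAT2, StringTie and GRCm38 are named in the submitters' processing notes, while the counter, its use of strand and its treatment of shared reads were not stated there. The values are raw counts per gene, deposited by the authors in 2 tables that hold the same numbers, and 1 was read: 22036 annotated rows and 4606 unannotated loci. No pair of replicates agreed within sampling noise (chi-square, minimum of 20 counts over both), so none is a copy of another. Each was entered as 1 replicate, but the labels do not say that they are independent. WT replicates 1 and 4, and 2 and 3, were the closest WT pairs. In every library counts of 1 are rarer than counts of 2, so read mates may have been counted each.

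Rows were filtered with filterByExpr (minimum count 10, minimum total 15), scaled by TMM and tested with edgeR 4.0.16 (glmQLFit, glmQLFTest, two-sided, no covariates, R 4.3.3). P-values were Benjamini-Hochberg adjusted over all 13265 rows, with 0.05 as the threshold, and SE is the log2 fold change over the square root of F. The procedure was tested on simulated data. CPM are TMM-scaled. Per-length levels divide CPM by the union exon length in GENCODE M21, which held all 64 rows, and those are computed here, not by the authors. Exact two-sided permutation tests used log2 CPM of single genes or log2 ratios. RefSeq windows on GRCm38.p6 existed for 46 of the 64 rows, and for 19 of the 25 tested carriers. Per-library values are given for the ATF4-list carriers and, by a rule that allowed up to 12, for the 5 other called rows, and others were added after their values were seen, as was the choice of ratios and printed sequences. The members and lists were chosen with earlier results of these data known.

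Alternatives were DESeq2 size factors, upper-quartile factors or library size only, no filter or 5 CPM in 4 libraries, DESeq2 1.42.0, limma-voom (limma 3.58.1), an adjusted p under 0.01, each library left out, and a block for the replicate number.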

Additional observations from a re-analysis of the deposited data

Results flagged for a closer look

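In 52 groups of 4 libraries (26 rows in each genotype), 3 had a library set apart from the others by a gap beyond Dixon's critical share of the range, where chance gives about 1 in 20 groups, or 2.6. Slc1a5 in knockout replicate 2 was at 189 CPM, below the other knockout libraries (357 to 388 CPM). Slc7a3 in WT replicate 3 was at 1.55 CPM, above the other WT libraries (0.852 to 0.883 CPM). Slc3a1 in knockout replicate 1 was at 0.442 CPM, below the others (1.34 to 1.47 CPM).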

How the results depend on the processing

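Over 436 pairs of a row (26) and an alternative, 385 kept direction and side of the threshold, 34 lost a call, 5 gained a call and 12 changed sign. Slc1a2, Slc7a5 and Slc7a7 kept their calls in every alternative in which they were tested. The carriers higher, 5 here, numbered 8 with no filter (Slc7a14, Slc43a2, Slc1a7 and Slc6a12 joined and Slc38a6 left), 3 with 5 CPM in 4 libraries, which tests fewer genes, 3 with the replicate block and 2 at an adjusted p under 0.01. With 1 library left out they numbered 2 to 6, and the carriers lower 1 to 2, the second being Slc3a2 without knockout replicate 1 and Slc6a6 without knockout replicate 2. The ATF4-list carriers higher were 0 under the stricter filter, the block and an adjusted p under 0.01, and 0 to 1 with 1 library left out; those lower were 1 to 2. The carriers' median log2 fold change was 0.0822 with upper-quartile factors, 0.0865 with library size only and -0.15 to 0.16 with 1 library left out. It was 0.59 with no filter, over a larger set that adds the carriers with few counts. The median of all rows was 0.198 with upper-quartile factors, 0.200 with library size only and 0.318 with no filter. An adjusted p under 0.01 left 2736 genes called, 1488 higher and 1248 lower. With 1 library left out, genes lower numbered 1768 (without knockout replicate 3) to 3409. In alternatives chosen after seeing the data, the gap between the lowest WT and the highest knockout summed per-length level, 79.8 here, was -28.5 with library size only and -30.8 for carriers other than Slc7a5. The cause of these shifts was not tested.

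Signs turned for values near 0. Slc1a1 was at 0.112 with upper-quartile factors, 0.137 with library size only and -0.83 to 0.43 with 1 library left out. Slc7a11 was at 0.0226 and 0.0410 with these scalings, and -0.53 to 0.19 with 1 library left out. Slc38a2 was at 0.0822 and 0.0865, Slc7a6 at 0.000571 with library size only, and Slc38a4 at -0.0603 to 0.33 with 1 library left out.

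Same-numbered libraries of the genotypes did not deviate together (correlations of -0.03 to -0.003 over 13265 rows), so the numbers do not pair them. With the replicate block, Slc7a3, Slc38a6 and Slc7a6os lost their calls (adjusted p = 0.0708, 0.0869 and 0.0866), and 4683 genes were called against 5513. Depth limits the 20 rows with few counts and the carriers under 5 CPM.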
